A study of Mus musculus with 2 samples.

Results

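The 10 genes described here encode the enzymes and the transporter that set phosphate and pyrophosphate around mineralising cells, and the proteins of bone matrix that bind mineral or are made by bone-forming cells. They are Spp1, Ibsp, Dmp1, Alpl, Enpp1, Ank, Phospho1, Mgp, Ptprv and Bglap, taken by gene symbol from a table of 15719 genes, and all 10 were listed. They were chosen by their known roles with the FPKM ratios of these same 2 libraries in view, so the values describe the genes and no test was made on them. RNA came from cells of C57BL/6 mice at postnatal day 5 that were labelled as superficial zone cells. Superficial zone cells are the flattened cells that line the surface of joint cartilage. Transcripts of general chondrocyte and hypertrophic genes, given further on, were present too. The groups were wild type (WT) and Prg4KO, mice without Prg4, the gene for the joint lubricant lubricin, with 1 library of polyadenylated RNA each. Cells were freed from cartilage of the femur ends and upper tibia by trypsin (0.25%, 1 hour) and then collagenase I (173 U/mL, 1.5 hours) and plated on fibronectin before RNA was taken. The number of mice per library, the time in culture and the design of the knockout allele were not given in the labels.

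Cartilage turns to bone where its cells stop making inhibitors of mineral and begin to release phosphate. Enpp1 makes pyrophosphate from nucleotides outside the cell and Ank exports it or its precursors, and pyrophosphate blocks crystal growth. Alpl, the tissue-nonspecific alkaline phosphatase, cleaves pyrophosphate, and Phospho1 frees phosphate inside the vesicles where crystals begin. Mgp holds mineral back in cartilage and vessel walls, while osteopontin, bone sialoprotein, dentin matrix protein and osteocalcin, encoded by Spp1, Ibsp, Dmp1 and Bglap, are deposited in mineralised matrix.

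The libraries held 21619093 expected counts (WT) and 21392574 (Prg4KO). The deposited Prg4KO values stood out of register with the gene names and were re-paired with them by row order and effective length. All 10 genes found a Prg4KO row at a probability of at least 0.9999, and for 9 of the 10 the effective length of that row differed by under 1% from the WT value. For Bglap, at few counts, it differed by -1.17%. Effective length alone did not always single out a row among the 81 rows compared around each gene. Around Ibsp, Dmp1, Alpl, Ank, Phospho1 and Ptprv, 2 to 4 further rows fitted within rounding and a tolerance of 0.02%. For Spp1, 0 rows fitted that closely, its own included, which differed by -0.0529%. Levels are given in FPKM, fragments scaled to transcript length and to library size, which can be compared between genes. Differences are log2 ratios of FPKM + 1, Prg4KO over WT, and a gene was called past the limits at a log2 ratio of at least 1 in size with an FPKM of at least 5 in either library. Count ratios are per library total, with a 95% exact binomial interval that covers counting error only. With 1 library per genotype, no difference has a replicate check, and the spread between cultures is unknown.

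The 6 genes for Mgp, the bone matrix proteins and Ptprv had count ratios from 1.58 (Mgp) to 7.18 (Bglap). The 4 genes of phosphate and pyrophosphate handling had count ratios from 0.953 (Alpl) to 1.18 (Ank). The genes were chosen with these ratios in view, and wider lists of the same roles, given further on, did not divide in this way. The median log2 ratio was 0.46 over further phosphate genes and -0.18 over osteoblast and osteocyte genes. The latter list was mixed, with 5 of its 13 genes at an FPKM of 5 above 0. Of the 8 described genes whose larger FPKM reached 5, 7 had a log2 ratio above 0, against 69.0% of the 7365 genes tested. Of these 8, 6 lay above the all-gene median of 0.15, as 50.0% of all do. Their median log2 ratio was 0.44. Past the limits were 2 of the 8, Ptprv and Spp1, both higher in the Prg4KO library, against 0.462% of all genes tested that were past them on that side, and 0 of the 8 were lower, against 0.109%. Ptprv (FPKM 1.32 in WT and 8.82 in Prg4KO) reached the level of 5 only in the library where it was higher. For this reason, and because of how the genes were chosen, these shares describe the 8 genes and are no test. The other scalings moved the all-gene median to between -0.03 and 0.03, and the share of calls that were higher in the Prg4KO library from 81.0% to between 41.2% and 54.8%.

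**Figure D1:**
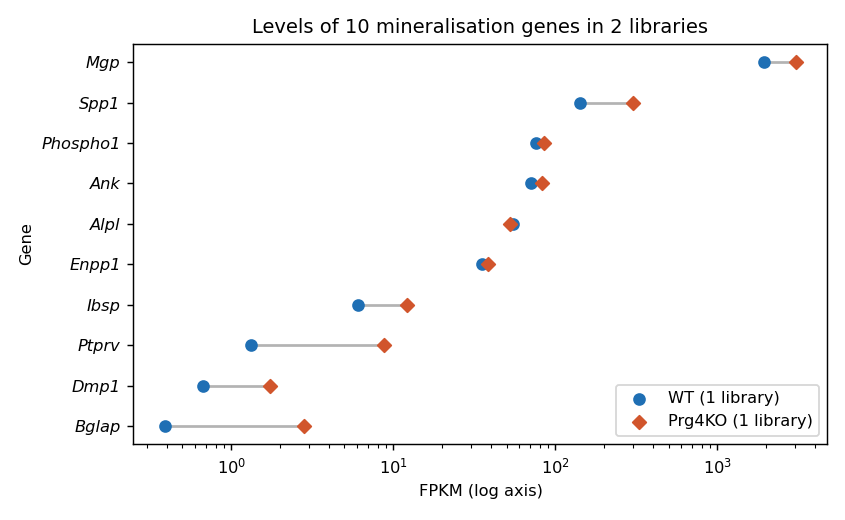
FPKM (log axis) of each of the 10 genes in the WT library (circles) and the Prg4KO library (diamonds), with a line between the values of a gene. The levels of Alpl, Enpp1, Ank and Phospho1 nearly overlay each other between the libraries, at FPKM 35.4 to 85.2, while the diamonds of the other 6 genes lie to the right of the circles.

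Spp1 encodes osteopontin, an acidic phosphoprotein of bone matrix that cells grip through integrins and CD44 and that hypertrophic chondrocytes, osteoblasts, osteoclasts and macrophages all make. It had 4366 WT counts (95% Poisson interval 4237 to 4497) and 9216 Prg4KO counts (9029 to 9406), at FPKM 142 and 304. The intervals of the 2 counts lay far apart. The count ratio was 2.13 (2.06 to 2.21) and the log2 ratio 1.09, and 19 of the 7365 genes had a higher one. The log2 ratio was between 0.91 and 0.96 under 4 other scalings and 0.86 without a trend in transcript length and GC content, so the call past the limits was lost under each of these.

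Ibsp encodes bone sialoprotein, which binds hydroxyapatite and marks osteoblasts and late hypertrophic chondrocytes. It had 257 WT counts (227 to 290) and 510 Prg4KO counts (467 to 556), at FPKM 6.10 and 12.2. Its count ratio of 2.01 (1.72 to 2.34) was close to that of Spp1, and its log2 ratio of 0.90 stayed under the limit. The FPKM of Spp1 was 23.4 times that of Ibsp in WT and 24.9 times in Prg4KO, and the interval of the change in this balance (0.908 to 1.24) held 1.

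Dmp1 encodes dentin matrix protein, an acidic protein of osteocytes and odontoblasts. It had 40 WT counts (28.6 to 54.5) and 103 Prg4KO counts (84.1 to 125), at FPKM 0.67 and 1.74. Both levels were low, and the gene did not reach the FPKM that the limits ask for. The count ratio was 2.60 (1.79 to 3.85), whose interval took in the ratios of Spp1 and Ibsp. Its own row was matched at a probability of 0.9999, but the rows next to it were not in one unbroken order.

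Spp1, Ibsp and Dmp1 lie in a row on chromosome 5, with the same strand, within 243 kb (chr5:104197575-104441053, GRCm38). They belong to the SIBLING family of secreted acidic proteins, which share an RGD motif for integrin binding. The remaining members of the family in that row were at the edge of detection. Mepe had 2 counts and Dspp 1 count in the WT library, and neither was matched to a Prg4KO row at a probability of 0.95. Pkd2, which encodes the channel protein polycystin-2 and follows Spp1 at a distance of 12929 bases, had FPKM 16.1 and 16.5 and a count ratio of 1.02 (0.959 to 1.09). The count ratios of 2.01 to 2.60 in the 3 family members were thus not seen in this neighbour.

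The stretch of 250 bases before the start site of each of these 3 genes and of Bglap is printed here because these genes had count ratios of 2 or more and RefSeq promoter windows (GRCm38.p6, 5' to 3' on the gene's own strand, up to the last base before the start). Of the 10 genes, 8 had such a window. For Dmp1 the second of its 2 listed starts is shown, since bases after the first were not found in an annotated transcript. For Spp1 the first of 2 is shown, and the window of the second (chr5:104435942-104436191) held none of the motifs searched. Capitals mark 4 motifs searched on both strands, the RUNX core ACCACA, the CCAAT box CCAAT, the TATA box TATAAA and TTTAAA, the last of which was added after the sequences had been seen.
Spp1: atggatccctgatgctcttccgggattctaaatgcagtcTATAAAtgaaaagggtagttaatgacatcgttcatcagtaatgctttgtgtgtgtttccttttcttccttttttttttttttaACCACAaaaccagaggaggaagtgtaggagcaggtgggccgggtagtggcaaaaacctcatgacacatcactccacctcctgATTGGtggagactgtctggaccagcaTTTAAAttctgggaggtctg
Ibsp: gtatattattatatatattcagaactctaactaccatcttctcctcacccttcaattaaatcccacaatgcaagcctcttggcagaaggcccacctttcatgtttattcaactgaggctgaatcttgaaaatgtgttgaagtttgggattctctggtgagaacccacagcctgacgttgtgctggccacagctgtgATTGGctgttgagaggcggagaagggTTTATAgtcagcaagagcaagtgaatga
Dmp1: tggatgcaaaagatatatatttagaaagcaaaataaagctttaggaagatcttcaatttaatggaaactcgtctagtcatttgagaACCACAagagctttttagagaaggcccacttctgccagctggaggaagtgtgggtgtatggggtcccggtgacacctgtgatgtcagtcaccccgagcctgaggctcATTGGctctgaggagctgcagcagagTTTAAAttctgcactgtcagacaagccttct
Bglap: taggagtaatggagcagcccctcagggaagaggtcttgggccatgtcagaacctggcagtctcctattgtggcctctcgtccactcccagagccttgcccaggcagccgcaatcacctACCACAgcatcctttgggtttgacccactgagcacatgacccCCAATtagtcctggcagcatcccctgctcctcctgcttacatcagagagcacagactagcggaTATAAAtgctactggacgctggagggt
The windows are chr5:104434861-104435110 (Spp1, plus strand), chr5:104299037-104299286 (Ibsp, plus), chr5:104202367-104202616 (Dmp1, plus) and chr3:88384467-88384716 (Bglap, minus). All 3 chromosome 5 windows printed held the CCAAT box on the reverse strand close to the start, from base -46 in Spp1, -54 in Ibsp and -57 in Dmp1, and the Bglap window held it on the forward strand from base -90. A CCAAT match stands in 33.8% of all 32851 windows of this length. The RUNX core, the binding letters of the bone regulator Runx2 and its relatives, was found in Spp1 (from base -128), Dmp1 (-164) and Bglap (-132), and in 14.0% of all windows. TATAAA lay from base -28 in Ibsp (reverse strand) and -27 in Bglap, and also at -211 in Spp1, against 12.4% of all windows. TTTAAA lay from base -20 in Spp1 and -31 in Dmp1, against 12.1% of all windows. One further motif, TGANTCA of the AP-1 factors, was in none of the 4 windows and in 6.75% of all. Windows of the genes with ratios near 1 held some of the same letters, with the RUNX core in Enpp1 (from base -144), CCAAT in Phospho1 (-40) and TATAAA in 1 of the Alpl windows (-192). These matches describe letters and show no binding.

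Bglap (chr3:88383495-88384466, minus strand) encodes osteocalcin, the small vitamin K dependent protein of osteoblasts. It had 3.98 WT counts (1.09 to 10.2) and 28.29 Prg4KO counts (18.6 to 40.5), at FPKM 0.39 and 2.83. The count ratio of 7.18 (2.47 to 27.8) had the widest interval of the 10 genes. Osteocalcin has near copies beside it on chromosome 3, and the counts were not whole, as happens where reads are shared out between genes. An annotated transcript of Bglap and one of Bglap2 were identical at 434 of 439 aligned bases (98.9%). Bglap2 had 7.09 and 6.77 counts and Bglap3 had 3.92 and 7.94, with a Prg4KO row that differed by -13.0% in effective length. The sum over the 3 genes, which does not depend on how reads were shared among them, was 14.99 WT counts and 43.0 Prg4KO counts, a ratio of 2.90 (1.58 to 5.61).

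Ptprv encodes a receptor-type tyrosine phosphatase known from osteoblasts and testis, though RefSeq lists the gene as a transcribed pseudogene in this genome (chr1:135108498-135132575, minus strand). It had 175 WT counts (150 to 203) and 1161 Prg4KO counts (1095 to 1230), at FPKM 1.32 and 8.82. No gene of the 7365 tested had a higher log2 ratio than its 2.08, and the count ratio was 6.70 (5.71 to 7.91). Ptprv was among the genes tested only through its Prg4KO level. It stayed past the limits under every scaling and pseudocount tried and after removal of the trend, at 1.92 to 2.65. An antisense gene, Gm10535, overlaps it in the GENCODE gene models and was not listed in the WT library. Its neighbours had lower counts in the Prg4KO library. Lgr6, a receptor of the R-spondin pathway 3124 bases away, had FPKM 5.86 and 3.09 (count ratio 0.527, 0.449 to 0.617), and Arl8a, a lysosomal GTPase gene on the far side, had 66.2 and 55.6 (0.842, 0.793 to 0.894).

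Mgp (chr6:136872435-136875823, minus strand) encodes matrix Gla protein, the vitamin K dependent inhibitor of mineral in cartilage. It was by far the most abundant of the 10 transcripts, with 25290 WT counts (24979 to 25604) and 39616 Prg4KO counts (39227 to 40008), at FPKM 1934 and 3056. By FPKM it ranked 15 in WT and 11 in Prg4KO, and it made up 83.3% and 83.9% of the summed FPKM of the 10 genes. The count ratio was 1.58 (1.56 to 1.61) and the log2 ratio 0.66, which 4.06% of tested genes exceeded. Thus the gene for an inhibitor of mineral and those for proteins of mineralised matrix were higher in the same library.

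**Figure D2:**
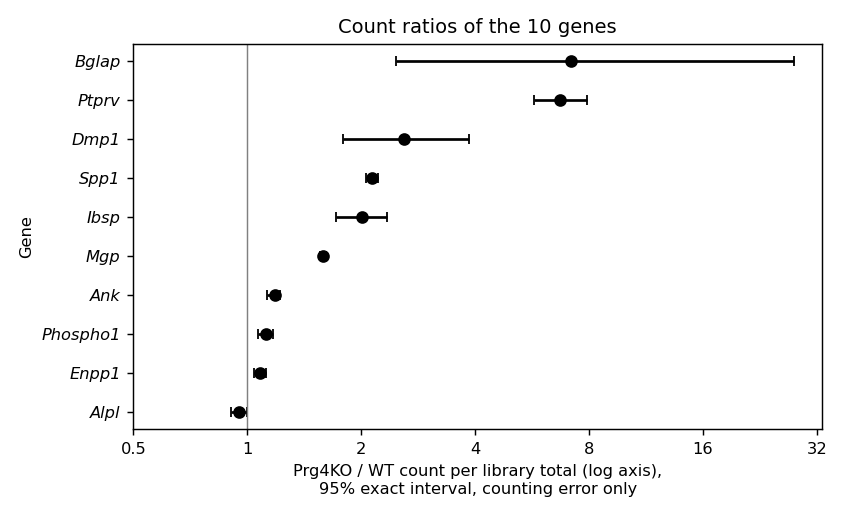
Count ratio per library total, Prg4KO over WT (log axis), of each of the 10 genes with its 95% exact interval for counting error. Alpl (0.905 to 1.00) is the only gene whose interval reaches 1, and those of Dmp1 and Bglap are wide because their counts are low. A ratio of 1 is not the middle of all genes, whose median log2 ratio was 0.15, with 69.0% of those tested above 0. Under other settings the log2 ratios of Enpp1 and Phospho1 fell as low as -0.07 and -0.02.

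The enzymes and the transporter of phosphate and pyrophosphate were well expressed and differed little. Alpl (chr4:137741731-137796384, minus strand) had 2998 WT counts (2892 to 3107) and 2828 Prg4KO counts (2725 to 2934), at FPKM 54.9 and 52.2. The intervals of these counts overlapped, and the count ratio was 0.953 (0.905 to 1.00). Its log2 ratio depended on the scaling: it was -0.07 as deposited, -0.25 to -0.19 under the 4 other scalings and 0.05 after removal of the trend.

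Enpp1 (chr10:24637914-24712159, minus strand), which makes pyrophosphate, had 5247 counts (5106 to 5391) and 5619 (5473 to 5768), at FPKM 35.4 and 38.2. The count ratio was 1.08 (1.04 to 1.12). Its log2 ratio of 0.11 lay 0.04 below the all-gene median, and turned negative, at -0.07 to -0.01, under all 4 other scalings. Ank (chr15:27466677-27594909, plus strand), the exporter, had 5366 counts (5223 to 5512) and 6248 (6094 to 6405), at FPKM 70.3 and 82.6, with a count ratio of 1.18 (1.13 to 1.22) and a log2 ratio of 0.23.

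Phospho1 (chr11:95824500-95832140, plus strand), the phosphatase of matrix vesicles, had 3137 counts (3028 to 3249) and 3474 (3359 to 3591), at FPKM 76.2 and 85.2. The count ratio was 1.12 (1.07 to 1.17), and the log2 ratio of 0.16 was 0.01 above the all-gene median and -0.02 with FPKM rescaled without the 20 most abundant genes. Strand use in counting is not given in the sources used here. Abi3, on the opposite strand, overlaps Phospho1 and had 296.68 and 299.46 counts. In the GENCODE gene models, which run further than those of RefSeq, Otulin also overlaps Ank (387 and 449 counts) and Zfp652 overlaps Phospho1 (272 and 217 counts). By the RefSeq positions Otulin lies 2146 bases from Ank and Zfp652 59785 bases from Phospho1.

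Balances within a library do not depend on how the libraries are scaled. They do depend on the trend in transcript length and GC content, which was left in here. With the trend removed the log2 ratio fell from 1.09 to 0.86 for Spp1, 0.90 to 0.73 for Ibsp and 0.66 to 0.44 for Mgp. It rose from -0.07 to 0.05 for Alpl, 0.11 to 0.20 for Enpp1, 0.23 to 0.31 for Ank, 0.16 to 0.28 for Phospho1 and 2.08 to 2.42 for Ptprv. The FPKM of Alpl was 1.55 times that of Enpp1 in WT and 1.37 times in Prg4KO, a change of 0.881 (0.826 to 0.939 from the counts). Against Ank it was 0.780 times and 0.632 times (change 0.810, 0.760 to 0.863). The gene for the enzyme that removes pyrophosphate was thus lower relative to both genes that supply it. The other 6 genes moved further against Alpl, by 1.66 (1.57 to 1.75) for Mgp, 2.10 (1.79 to 2.48) for Ibsp, 2.24 (2.10 to 2.38) for Spp1, 2.73 (1.87 to 4.05) for Dmp1, 7.03 (5.94 to 8.36) for Ptprv and 7.42 (2.59 to 29.1) for Bglap. All these intervals cover counting error only, and not the shift from the trend.

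**Figure D3:**
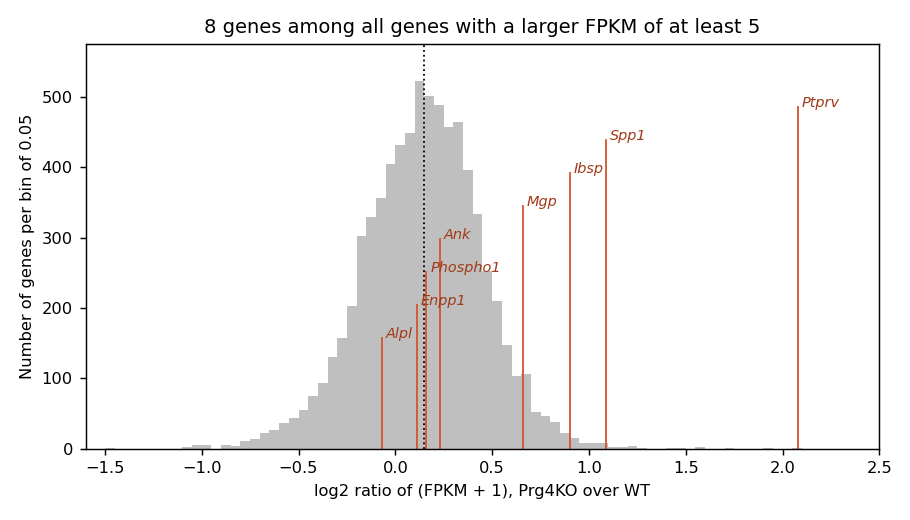
Histogram of the log2 ratio of FPKM + 1, Prg4KO over WT, for the 7365 genes whose larger FPKM reached 5 (Prg4, the 1 value below -1.5, is placed in the first bin), with the 8 described genes that reach this level as lines of arbitrary height. The dotted line is the all-gene median of 0.15. Alpl, Enpp1, Phospho1 and Ank stand in the body of the histogram, and Mgp, Ibsp, Spp1 and Ptprv in its right tail.

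In the plane of WT level and log2 ratio, the genes closest to Spp1 were Matn3, which encodes a cartilage matrilin (FPKM 168 and 377, distance 0.25), the translation factor gene Eef1b2 (164 and 311, 0.26) and Ppa1, a soluble pyrophosphatase gene (181 and 360, 0.35). Those closest to Ibsp were Fxyd3 (0.03), Chchd4 (0.05) and Cav2 (0.08). For Ptprv no gene was as near, and Fabp7 (0.52), Elf3 (0.65) and Wdfy1 (0.69, with a Prg4KO row that differed by 15.6% in effective length) came first. With 2 libraries, this likeness rests on 2 values per gene.

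Of 14 further genes that handle phosphate, pyrophosphate or the nucleotides they come from, 0 were past the limits on either side, and 7 of the 8 whose larger FPKM reached 5 had a log2 ratio above 0, against 69.0% of all genes, and 5 of the 8 lay above the all-gene median. Their median was 0.46. Ppa1, with 4980 and 9832 counts (count ratio 1.93 to 2.06), had a log2 ratio of 0.99, just inside the limit. The nucleoside transporter gene Slc29a1 had FPKM 231 and 248 (0.10). Others on this side were chosen after their values were seen. Nt5e, for the ectonucleotidase CD73, had FPKM 38.6 and 62.9 (0.69), the phosphate importer gene Slc20a1 47.2 and 73.3 (0.63) and Smpd3, for a sphingomyelinase of matrix vesicles, 35.4 and 55.7 (0.64).

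Among 5 further genes of the SIBLING group, which include the kinase gene Fam20c and the peptidase gene Phex, 2 reached the level asked for, and 0 passed the limits. Fam20c, which phosphorylates the secreted acidic proteins, had FPKM 25.1 and 25.8 (log2 ratio 0.04), and Fam20a, its partner, had 5.46 and 4.47 (-0.24). Phex, an osteocyte and osteoblast gene, had 33.4 and 70.57 counts (ratio 2.14, 1.42 to 3.39). Of 10 further genes of Gla proteins and vitamin K metabolism, 8 reached the level, 0 passed the limits and the median log2 ratio was 0.04. Ucma, a Gla protein of young chondrocytes, had FPKM 535 and 618 (0.21), Vkorc1, which recycles vitamin K, 328.5 and 299.6 (-0.13), and periostin (Postn) 420 and 274 (-0.62).

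Matrix vesicle genes had a median of 0.45 over 9 of 11 genes at that level, and 0 passed the limits. The median was 0.21 after removal of the trend, when it lay 0.06 above that of all genes, against 0.30 above as deposited. S100a10 had FPKM 586 and 869 (0.57), and the annexin genes Anxa2 370 and 505 (0.45), Anxa5 407 and 460 (0.18) and Anxa1 97.7 and 135 (0.46). Of the 9 genes 6 had a ratio above 0, against 69.0% of all genes tested. The others, named after their values were seen, were Anxa6 (-0.18), Ano6 (-0.19) and Slc39a14 (-0.14). The receptors of osteopontin had a median of -0.13 over 6 of 10 genes, again with 0 past the limits, and the median turned to 0.06 after removal of the trend. In this list Cd44 was at 58.3 and 50.4 (-0.21), Itgb1 at 74.7 and 84.6 (0.18), Itga5 at 137 and 132 (-0.06) and Itgb5 at 55.2 and 43.2 (-0.35).

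**Figure D4:**
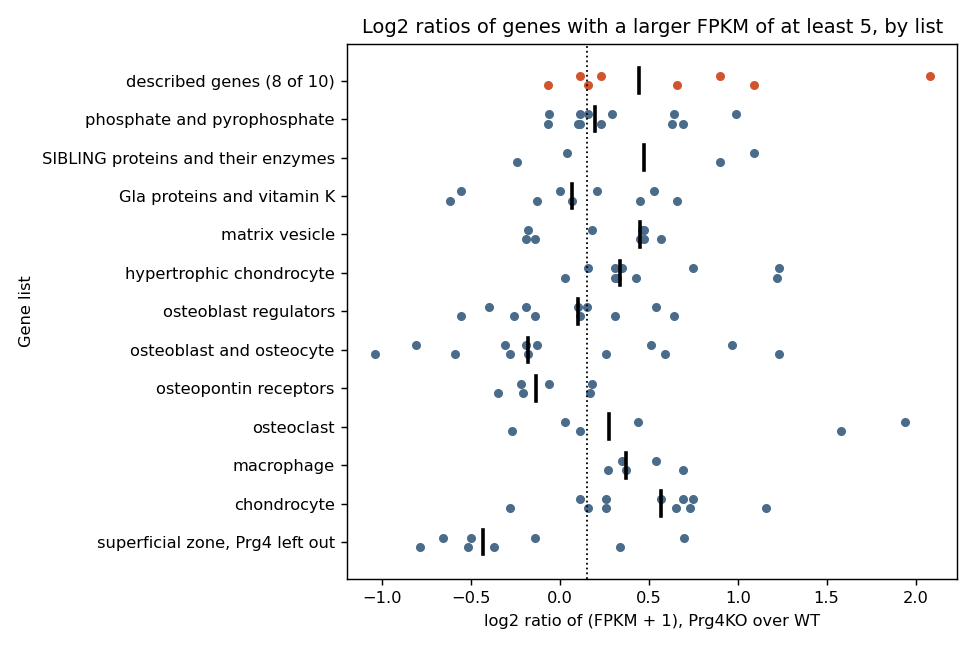
Log2 ratio of FPKM + 1, Prg4KO over WT, of each gene whose larger FPKM reached 5, by list, with the median of a list as a bar and the all-gene median of 0.15 as a dotted line. Some genes stand in several lists, and Prg4, at -9.08, is left out. The hypertrophic genes lie right of 0, as do 69.0% of all genes tested, while the osteoblast and osteocyte list spreads from -1.04 (Col1a1) to 1.23 (Panx3).

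Genes of the cells that make these proteins were measured in the same libraries. The RNA of all collected cells was measured together, so more cells of a type and more RNA per cell cannot be told apart. Of the 11 hypertrophic chondrocyte genes, 10 reached an FPKM of 5. All 10 had a log2 ratio above 0 as deposited, against 69.0% of all genes tested, the lowest being Runx3 (0.03). Above the all-gene median lay 9, as 50.0% of all genes do, and the list median of 0.33 was 0.18 above it. Panx3 (1.23) and Foxa2 (1.22) were past the limits, against 0.462% of all genes on that side. The summed FPKM of the list was 616 in WT and 841 in Prg4KO. Col10a1 had 241 and 301, Sox9 150 and 168 and the parathyroid hormone receptor gene Pth1r 53.7 and 91.2 (0.75). Sox9 stands in the chondrocyte list too, so it does not mark hypertrophic cells alone.

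Osteoblast genes did not share one direction. The bone regulators had a median of 0.10 over 11 of 17 genes with 0 past the limits, with Runx2, the master regulator of bone, at FPKM 6.88 and 7.75 (0.15), Sp7, which acts after it, at 12.2 and 15.4 (0.31) and Atf4 at 616 and 664 (0.11). Twist1 had 57.5 and 48.0 (-0.26), Cbfb, the partner of the RUNX proteins, 27.6 and 43.6 (0.64) and the Wnt co-receptor gene Lrp5 33.5 and 22.4 (-0.56). The summed FPKM of this list was 816 and 863. In the osteoblast and osteocyte list, 13 of 16 genes reached the level, with a median of -0.18 and summed FPKM of 31418 and 21927. Past the limits were Panx3 on the higher side (0.462% of all genes tested) and Col1a1 on the lower side (0.109%). Col1a1, the chain that makes up most of bone collagen and is also abundant in fibrous tissue, had FPKM 11470 and 5593 (-1.04, and -0.66 without the trend), Col1a2 5838 and 3869 (-0.59), Sparc 9229 and 8417 (-0.13) and Bgn 3862 and 3182 (-0.28). Ifitm5, specific to osteoblasts, had 46 and 76 counts (ratio 1.67, 1.14 to 2.46). The osteocyte genes Sost, with 1 count in the WT library and no matched Prg4KO row, and Fgf23, with 4 and 1 counts, were close to 0, while Dmp1 and Phex, given above, had more counts, and Pdpn, named after its values were seen, had 2136 and 1860. The Prg4KO row of Fgf23 differed by -11.7% in effective length.

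Osteoclasts and macrophages also make osteopontin. Of 15 osteoclast genes, 6 reached an FPKM of 5. Past the limits were 2, Mmp9 (14.1 and 56.9, 1.94) and Acp5 (10.2 and 32.3, 1.58), against 0.462% of all genes tested on the higher side. The summed FPKM was 228 and 292, of which Ctsk, also expressed outside osteoclasts, made up 140 and 143, and Nfatc1 48.6 and 40.2. Relative to all genes the median of this list was 0.13 as deposited and turned negative, at -0.03 and -0.02, under 2 of the other scalings. Calcr had 4 and 2 counts, Oscar 8 and 12 and Atp6v0d2 27 and 74 (ratio 2.77, 1.76 to 4.48), and Dcstamp was not listed in the WT library. The Prg4KO row of Calcr differed by -15.9% in effective length. Of 10 macrophage genes, 5 reached the level, all 5 with ratios above the all-gene median (0.27 to 0.69), as 50.0% of all genes have. None was past the limits, and the summed FPKM of the list was 60.3 and 82.2. Cd68 had FPKM 21.1 and 25.6, Tyrobp 7.87 and 13.3 and Csf1r 6.57 and 8.62, and Lyz2 had 301.8 and 444.33 counts. The part of these cell types in the ratios of Spp1, Ibsp, Dmp1, Bglap, Mgp and Ptprv was not tested.

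The label of the cells was checked against markers. Prg4, the target, had 54559 WT counts and 6.15 Prg4KO counts. The Prg4KO row matched to Prg4, at FPKM 0.10 and a probability of 0.9986, differed by -32.6% in effective length. Of 9 further superficial zone genes, 8 reached an FPKM of 5, 6 of them below the all-gene median. Their median log2 ratio was -0.44, and the summed FPKM of the 9 genes was 724 and 569. Thbs4 had FPKM 267 and 169 (-0.66) and Tnc 104 and 59.6 (-0.79). The 2 above the all-gene median, named after their values were seen, were Erg (9.78 and 12.63, 0.34) and Pcolce2 (75.9 and 124, 0.70). All 11 chondrocyte genes reached an FPKM of 5, and 9 lay above the all-gene median, as 50.0% of all genes do. Matn3 (1.16) was past the limits, against 0.462% of all genes on that side. The median of these 11 genes was 0.57, against 0.44 for the mineralisation genes. The chondrocyte genes summed to 20425 and 23948 FPKM, most of it Col2a1 at 14594 and 15702. These marker lists moved in the same comparison as the 10 genes, and their part in the ratios was not tested. Both libraries thus held transcripts of superficial zone, general chondrocyte and hypertrophic genes beside those of the 10 genes. Which cells the general chondrocyte transcripts came from was not tested.

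**Figure D5:**
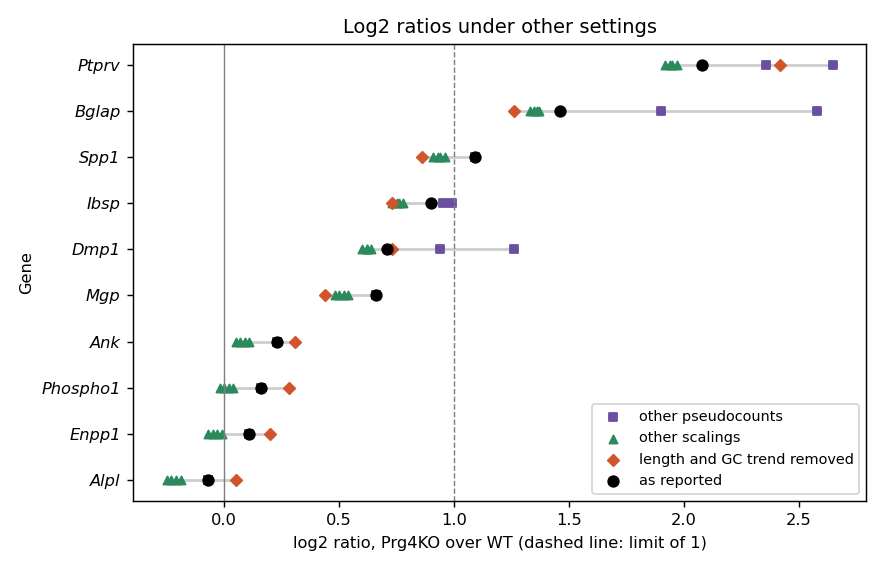
Log2 ratio, Prg4KO over WT, of each of the 10 genes as reported (black) and under other pseudocounts, other scalings and after removal of a trend in transcript length and GC content. Spp1 falls below the limit of 1 under the other scalings, Ptprv stays above it, and Alpl, Enpp1 and Phospho1 change sign.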

How the data were processed

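Per the file headers, the authors deposited expected counts (estimated reads per gene, which need not be whole) and FPKM for 1 WT and 1 Prg4KO library. HISAT2, Bowtie2, RSEM and the build mm10 appear in the submitters' processing notes with no version or role, and counting options and strand use were not stated there. The table named 15719 genes and held 15973 Prg4KO value pairs, 254 of them beside no gene. Log2 FPKM correlated between libraries at r = 0.96 across the first 20 rows and 0.0841 across later ones. Prg4KO rows were re-paired with genes by a pair hidden Markov model over row order and count divided by FPKM (the effective length), in which a gene could lack a partner with a probability of 0.002 plus 0.4 near 0 counts. Pairs at a probability of at least 0.95 were used, for 14760 genes (93.9%), with r = 0.981 for log2 FPKM across the paired genes, and a wrong pair would change a Prg4KO value. The pairing was tested on simulated data.

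Intervals are exact (Poisson for a count, binomial for a ratio, conditional for a balance of 2 genes), on expected counts rounded to whole numbers (scipy 1.17.1). Ratios used a pseudocount of 1 FPKM. The trend was a quadratic in the deposited log2 transcript length and the GC content of GENCODE transcripts (99.9% of tested genes matched), which held 23.7% of the variance. Positions and promoter windows are RefSeq's for GRCm38.p6, matched by gene number. The genes and lists were chosen with earlier results of these data known. The naming rule took all 10 genes, from each list the genes past the limits and the 4 with the highest FPKM, the 3 genes nearest in pattern to Spp1, Ibsp and Ptprv, and chromosomal neighbours; cell type markers and genes said to be chosen later come on top, and not every gene the rule allows is printed. Alternatives were other pseudocounts, FPKM minimums, scalings, trend removal, pair probabilities and a simpler pairing model.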

Additional observations from a re-analysis of the deposited data

How the results depend on the processing

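The count of the 10 genes past the limits was 2 as reported and 3 with a larger FPKM of at least 1 or with no filter (Bglap added). It was 1 (Ptprv) after trend removal and under all 4 rescalings. These were to a common median, sum or upper quartile, or left out the 20 most abundant genes. Of all 7365 genes tested, 34 were higher and 8 lower past the limits as reported. The higher ones were 48 of 11192 with a larger FPKM of at least 1 and 48 of 14760 with no filter. After trend removal they were 18 of 7360, and under the rescalings from 14 of 7122 to 17 of 7182. Described genes above the all-gene median numbered 6 of 8 as reported and 5 to 7 under the alternatives that kept the FPKM minimum of 5. They numbered 8 of 10 with a larger FPKM of at least 1 and 9 of 10 with no filter. As reported, 50.0% of all genes lay above it. The median of the described genes above that of all genes, 0.29, moved to 0.55 with a larger FPKM of at least 1, 0.59 with no filter and 0.23 after trend removal. By construction the first 2 settings add the low genes Dmp1 and Bglap. All 10 genes kept the same Prg4KO row under the simpler pairing model. Of all genes past the limits, 81.0% were higher in the Prg4KO library as deposited, against 44.1% at a common median, 47.1% at a common sum, 54.8% at a common upper quartile and 41.2% without the 20 most abundant genes, since the rescalings move the all-gene median from 0.15 to between -0.03 and 0.03. Relative to all genes, the median of the Gla list turned to 0.04 with no filter, and that of the osteoclast list to -0.03 at a common median and -0.02 without the 20 most abundant genes; the cause was not tested. On the same scale the osteopontin receptor list went from -0.28 to between -0.17 and -0.09, and the matrix vesicle list from 0.30 to between 0.06 and 0.17, with lower FPKM minimums and after trend removal. Depth limits Dmp1 and Bglap, with 40 and 3.98 WT counts. No replicate could be left out, as each genotype had 1 library. No paired analysis was possible because each genotype had 1 library.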
